A study of Mus musculus with 6 samples.

Results

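The T cell receptor (TCR) complex and its proximal signalling proteins were examined as transcripts in resting CD4 T cells that had lost the cap methyltransferase RNMT. The genes were taken by symbol: Cd3d, Cd3e, Cd3g and Cd247, which encode the invariant signalling chains of the receptor, and Lck, Zap70, Lat, Lcp2 and Ptprc, which encode the proteins that carry its signal at the membrane. These are 9 of the 46983 genes in the count tables, 4 receptor genes and 5 signalling genes, and all 9 passed the filter on low counts (more than 1 CPM, a count scaled by the total of its library, in at least 3 libraries).

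The TCR binds antigen through its variable alpha and beta chains and has no enzymatic activity of its own. The CD3 delta, epsilon and gamma chains and the zeta chain (Cd247) carry tyrosine motifs that the kinase LCK phosphorylates, which recruits the kinase ZAP70. ZAP70 then phosphorylates the adaptors LAT and SLP-76 (Lcp2), on which the enzymes that start the calcium, Ras and NF-kB pathways assemble, while the phosphatase CD45 (Ptprc) keeps LCK in a state from which it can be activated.

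RNA was sequenced from naïve CD4 T cells of male mice, which had been sorted from lymph nodes as live TCRb+, CD4+ cells with a naïve surface phenotype (CD44- among its criteria). The 3 control libraries came from Rnmt fl/fl animals without Cre, and the 3 Rnmt cKO libraries from Rnmt fl/fl animals with CD4cre, a transgene that deletes the floxed exon from the double positive thymocyte stage on. Controls thus carried the floxed alleles too, but not the transgene, so that the presence of Cre and the loss of Rnmt cannot be told apart. Separate animals are not named in the labels, and the p-values measure the spread between these libraries. Ages are not given in the labels.

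Sense counts assigned to genes ranged from 8873413 to 11277764 per library. Rnmt itself had 51.5, 58.7 and 57.9 CPM in controls, against 41.95, 37.5 and 26.6 CPM in Rnmt cKO cells, a log2 fold change of -0.67 (SE 0.148, adjusted p = 0.00035, edgeR exact test), counted over the whole gene although only part of it is deleted. Of the 6 naïve CD4 T cell markers, 2 rose, among them Cd4 (log2 fold change 0.35, adjusted p = 0.00491, edgeR exact test). The Cd4 call was lost without control 2 (adjusted p = 0.0759, edgeR exact test). Il7r fell (-0.96, adjusted p = 2.44e-17, edgeR exact test). The summed level of the 6 markers was 4112 to 4391 CPM in controls, against 4802 to 5300 CPM in Rnmt cKO cells. Marker genes of other cell types were far lower in sum. The 2 CD8 genes summed to 21.7 to 23.3 CPM in controls, against 13.5 to 17.3 CPM in Rnmt cKO cells, and both fell. The 3 regulatory T cell genes summed to 127 to 169.8 CPM in controls, against 94.4 to 121 CPM, with 2 of them lower. The 6 B cell genes summed to 39.0 to 46.3 CPM in controls, against 50.7 to 87.7 CPM, with 4 of them higher. The 5 NK cell genes summed to 4.75 to 6.94 CPM in controls, against 8.24 to 16.4 CPM in Rnmt cKO cells. Most of this sum was Eomes (means 4.22 and 9.85 CPM), the 1 gene of the 5 that was tested, and Eomes was higher. The 6 genes of monocytes, macrophages and dendritic cells summed to 5.69 to 7.07 CPM, against 10.7 to 23.8 CPM with 1 higher. The 4 neutrophil genes summed to 0.235 to 0.599 CPM, against 4.54 to 15.8 CPM, with S100a8 and S100a9 higher. The 4 thymocyte genes were at 9.61 to 12.6 CPM in controls, against 9.20 to 10.7 CPM in Rnmt cKO cells. Most of this was Dntt (means 10.65 and 9.58 CPM), the 1 gene of the 4 that was tested. The thymocyte gene Ptcra was at 0 in every library. The share of uniquely mapped fragments counted in no gene was 36.1%, 39.7% and 46.1% in controls 1, 2 and 3, against 47.9%, 46.5% and 31.8% in Rnmt cKO 1, 2 and 3. This share, called the share in no gene below, holds all fragments not assigned to sense exons. It can therefore include fragments from introns or antisense to genes. The part of these other cell types in the results was not tested.

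Of the receptor complex and proximal signalling transcripts, 1 was lower in Rnmt cKO cells and 8 did not pass the test. Cd3g fell to 0.738 of its control level, while 0 of the 9 genes rose at an adjusted p under 0.05. Across all 12336 genes tested, 6.84% were lower and 8.0% were higher by the same rule (844 and 987 genes). Cd3g was also the 1 gene of the 9 with an unadjusted p under 0.05, and the quasi-likelihood test of edgeR and DESeq2 likewise called 0 of them higher. With no scaling, and in the quasi-likelihood test with the share of fragments in no gene as a covariate, 2 (Lat and Lcp2) were called higher. Those settings called 1938 and 1696 of all genes higher, against 987 in the main test. The log2 fold change was under 0 for 5 genes and over 0 for 4, with a median of -0.05 against 0.01 over all tested genes. Every library of Rnmt cKO lay below every control for 1 of the 9 genes (Cd3g) and above for 1 (Lcp2), against 14.9% and 16.6% of all tested genes, and the groups overlapped for 7. All 9 exceeded 100 CPM in every library, and the smallest count behind any value was 1314 fragments. The 9 genes together made up 6133 ± 104 CPM (SD, n = 3) in controls, against 6074 ± 219 CPM (SD, n = 3) in Rnmt cKO cells.

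**Figure D1:**
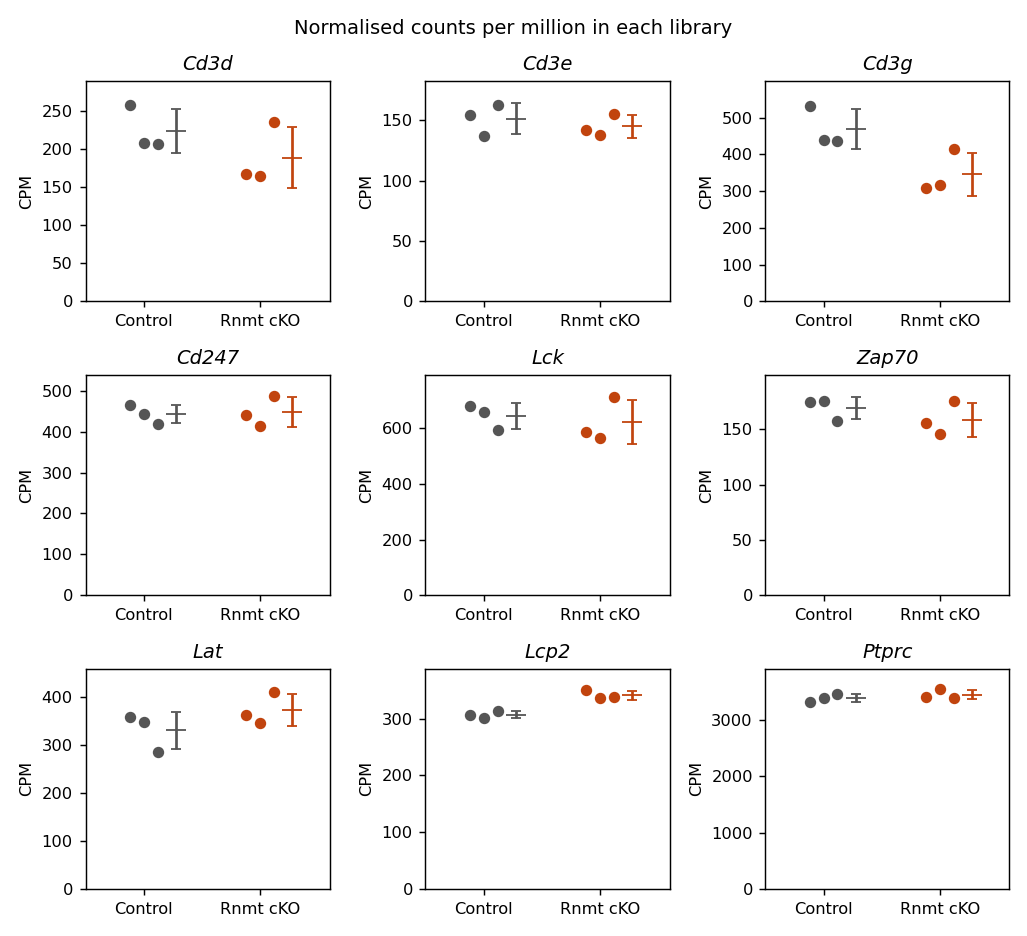
Normalised expression (CPM, vertical axes from 0) of the 9 genes in each library, with 1 point per library in the order 1 to 3 and the mean ± SD beside it, controls in grey and Rnmt cKO in orange. The Cd3g points of Rnmt cKO (308 to 414 CPM) lie below all 3 controls, the Lcp2 points (336 to 350.5 CPM) lie above all 3 controls, and the other 7 genes overlap between groups.

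The CD3 genes lie side by side on chromosome 9 (mm10). Cd3g (ENSMUSG00000002033, chr9:44969572-44980431, minus strand) and Cd3d (ENSMUSG00000032094, chr9:44981786-44987339, plus strand) point away from each other with 1354 bases between their annotated starts, and Cd3e (ENSMUSG00000032093, chr9:44998740-45009627, minus strand) follows on the far side of Cd3d. The 3 genes span 40056 bases. The 250 bases upstream of each RefSeq start (GRCm38.p6) are shown because these neighbours share a locus and 1 of them passed the test. Each is written in the direction of its gene, and capitals mark an E box (CAGGTG or its other strand CACCTG) or an ETS core (AGGAAG or its other strand CTTCCT).
Cd3g, chr9:44980432-44980681, minus strand: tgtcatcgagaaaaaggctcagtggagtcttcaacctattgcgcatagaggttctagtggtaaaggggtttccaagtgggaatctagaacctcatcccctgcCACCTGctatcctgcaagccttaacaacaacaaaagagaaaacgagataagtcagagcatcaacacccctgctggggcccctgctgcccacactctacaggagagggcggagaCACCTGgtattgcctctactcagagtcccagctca
Cd3d, chr9:44981536-44981785, plus strand: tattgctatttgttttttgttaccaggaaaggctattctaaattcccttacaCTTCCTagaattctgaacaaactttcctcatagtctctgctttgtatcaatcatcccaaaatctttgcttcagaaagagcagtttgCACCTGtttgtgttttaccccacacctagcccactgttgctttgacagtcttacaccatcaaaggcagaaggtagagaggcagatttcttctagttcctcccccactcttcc
Cd3e, chr9:45009612-45009861, minus strand: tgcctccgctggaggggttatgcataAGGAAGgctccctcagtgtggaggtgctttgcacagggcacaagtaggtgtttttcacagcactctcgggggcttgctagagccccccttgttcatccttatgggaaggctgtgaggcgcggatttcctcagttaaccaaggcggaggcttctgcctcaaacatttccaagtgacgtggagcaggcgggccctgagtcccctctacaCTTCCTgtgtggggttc
The Cd3g window held 2 E boxes and 0 ETS cores, the Cd3d window 1 of each, and the Cd3e window 0 E boxes and 2 ETS cores. GC content was 51.6% for Cd3g, 41.2% for Cd3d and 57.2% for Cd3e. A match describes the letters of these windows and is not evidence of binding.

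Of the 3 neighbours, Cd3g was the 1 with an adjusted p under 0.05. Cd3g, the gamma chain that pairs with CD3 epsilon and carries a signal for receptor internalisation, had 533, 440 and 435 CPM in controls 1, 2 and 3, against 307.5, 317 and 414 CPM in Rnmt cKO 1, 2 and 3. All 3 Rnmt cKO libraries were lower than all 3 controls, but Rnmt cKO 3 came close to the lower controls. The means were 469 ± 55.1 and 346 ± 58.7 CPM (SD, n = 3 each), a log2 fold change of -0.44 (SE 0.124, 95% interval -0.72 to -0.17, adjusted p = 0.0132, edgeR exact test). In bulk RNA, fewer cells with a transcript and less of it per cell cannot be told apart, and CPM is relative to the rest of the library. The call was lost when control 1 (log2 fold change -0.34, adjusted p = 0.13), Rnmt cKO 1 (-0.36, adjusted p = 0.124) or Rnmt cKO 2 (-0.38, adjusted p = 0.115) was left out, all by the edgeR exact test. Over all 15 alternatives the log2 fold change stayed under 0, from -0.61 to -0.32, and 11 kept an adjusted p under 0.05 (range 7.55e-08 to 0.13).

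Cd3d, the delta chain, had 258, 208 and 208 CPM in controls, against 167, 165 and 236 CPM in Rnmt cKO cells. Rnmt cKO 1 and 2 were below every control, whereas Rnmt cKO 3 exceeded 2 of the 3. Its log2 fold change of -0.25 (SE 0.138, 95% interval -0.56 to 0.05) did not pass the edgeR exact test (adjusted p = 0.317). Without Rnmt cKO 3 it was -0.45 (adjusted p = 0.000163, edgeR exact test), and with the share of fragments in no gene as a covariate it was -0.22 (adjusted p = 0.0212, edgeR quasi-likelihood test). Those settings called 1285 and 1466 of all genes lower, against 844 in the main test. Cd3e, the epsilon chain that pairs with both gamma and delta, had 154.5, 137 and 163 CPM in controls, against 142, 137 and 155 CPM in Rnmt cKO cells. The groups covered nearly the same range, and the log2 fold change was -0.06 (SE 0.0869, 95% interval -0.25 to 0.13, adjusted p = 0.780, edgeR exact test). Summed over the 3 genes the level was 945, 785 and 806 CPM in controls, against 617, 619 and 805 CPM in Rnmt cKO cells, so that Rnmt cKO 3 lay between the controls.

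Cd247 (ENSMUSG00000005763, chr1:165788681-165877277, plus strand) encodes the zeta chain, which forms a disulphide-linked dimer and supplies most of the phosphorylation motifs of the receptor. It had 464.5, 444 and 420 CPM in controls, against 442, 415 and 487 CPM in Rnmt cKO cells. The groups overlapped throughout, with a log2 fold change of 0.02 (SE 0.0882, 95% interval -0.18 to 0.21, adjusted p = 0.964, edgeR exact test). The sign of this small value turned in 3 of 15 alternatives. Of its sense and antisense fragments, 5.01% were antisense, and Pou2f1 overlaps its far end on the opposite strand.

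Lck (ENSMUSG00000000409, chr4:129548344-129573641, minus strand), the Src family kinase bound to CD4, had 681, 658 and 593 CPM in controls, against 586, 567 and 712 CPM in Rnmt cKO cells. The highest and the lowest value were both in Rnmt cKO libraries. The log2 fold change was -0.05 (SE 0.107, 95% interval -0.29 to 0.18, adjusted p = 0.864, edgeR exact test). Zap70 (ENSMUSG00000026117, chr1:36761798-36782818, plus strand), the kinase that docks on phosphorylated CD3 and zeta chains, had 174.5, 176 and 157 CPM in controls, against 155, 145 and 175 CPM in Rnmt cKO cells. It overlapped between groups, with a log2 fold change of -0.09 (SE 0.0886, 95% interval -0.29 to 0.10, adjusted p = 0.659, edgeR exact test). As for the CD3 genes, Rnmt cKO 3 was the highest of its group for Cd247, Lck and Zap70.

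The 2 adaptors that serve as substrates of ZAP70 were both on the other side of 0. Lat (ENSMUSG00000030742, chr7:126363824-126369570, minus strand), the transmembrane scaffold, had 359, 348 and 287 CPM in controls, against 363, 346 and 412 CPM in Rnmt cKO cells. Its groups overlapped, since Rnmt cKO 2 lay below 2 controls, and the log2 fold change was 0.17 (SE 0.104, 95% interval -0.05 to 0.41, adjusted p = 0.378, edgeR exact test). Lcp2 (ENSMUSG00000002699, chr11:34046920-34092295, plus strand), which encodes the cytosolic adaptor SLP-76, had 307, 302 and 313 CPM in controls, against 350.5, 336 and 338 CPM in Rnmt cKO cells. It varied little within either group and every Rnmt cKO library was above every control. The difference was small, with a log2 fold change of 0.15 (SE 0.0723, 95% interval -0.01 to 0.31), and it did not pass the edgeR exact test (adjusted p = 0.296). Both genes passed the threshold with no scaling beyond library size (Lat 0.30, adjusted p = 0.0385, and Lcp2 0.28, adjusted p = 0.0342, edgeR exact test), a setting under which the median of all genes itself moved to 0.14. They also passed with the share in no gene as a covariate (Lat 0.20, adjusted p = 0.0237, and Lcp2 0.15, adjusted p = 0.0467, edgeR quasi-likelihood test). With this covariate 1696 of all genes were called higher, against 793 in the same test without it.

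Ptprc (ENSMUSG00000026395, chr1:138062861-138175708, minus strand), the receptor phosphatase CD45, had the highest level of the 9 per length. It had 3315, 3399 and 3466 CPM in controls, against 3407, 3546 and 3395 CPM in Rnmt cKO cells. The groups overlapped, and the log2 fold change was 0.02 (SE 0.140, 95% interval -0.28 to 0.33, adjusted p = 0.940, edgeR exact test). The SE and interval come from limma, which moderates the variance of each gene by a trend over all genes. They are wide beside the spread of Ptprc itself, at 3393 ± 75.8 and 3449 ± 84.0 CPM (SD, n = 3 each). CD45 is expressed by other leukocytes as well. Gene counts do not separate its splice forms.

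**Figure D2:**
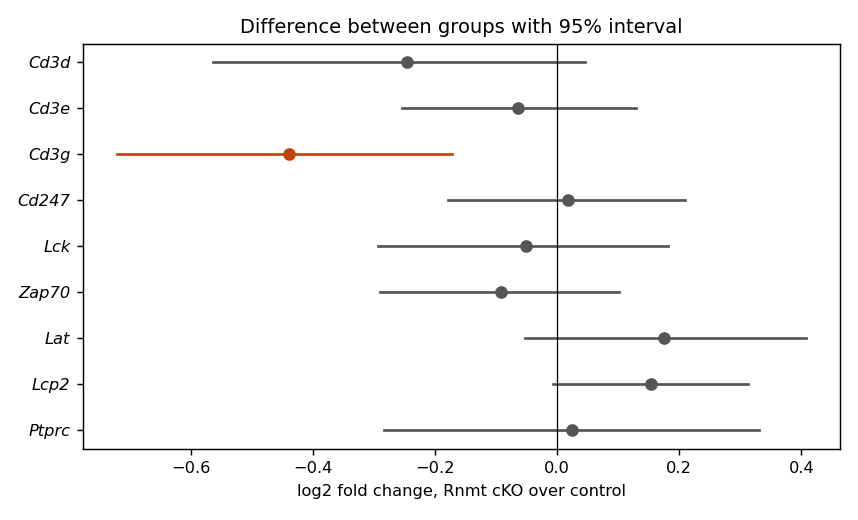
Log2 fold change of Rnmt cKO over control (horizontal axis) for the 9 genes, as points with 95% intervals from limma, with the gene that passed the edgeR exact test in orange. The interval of Cd3g, from -0.72 to -0.17, excludes 0 and those of the other 8 include it.

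The libraries can be set apart by their share of fragments in no gene, with controls 1 and 2 and Rnmt cKO 3 under 42% and the other 3 libraries over it. The Cd3g difference was -0.23 on the log2 scale within the low set (2 controls, 1 Rnmt cKO) and -0.48 within the high set (1 control, 2 Rnmt cKO). The Cd3d difference was 0.03 in the low set and -0.32 in the high set, and that of Cd3e was 0.09 and -0.22. Cd3g was lower in both sets, and Cd3d and Cd3e were lower in the high set and not in the other. Lat (0.22 and 0.31) and Lcp2 (0.15 and 0.13) were higher in both. For Cd3g and Lcp2 the groups did not overlap in any library, so the same sign in both sets was fixed in advance. Of the others, Cd247 had differences of 0.10 and 0.03, Lck of 0.09 and -0.04, Zap70 of 0.00245 and -0.07, and Ptprc of 0.02 and 0.00416. These sets hold too few samples for a test.

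Ratios within a library do not depend on how libraries were scaled. The 3 CD3 genes were summed, and Cd3g alone held 469 of 845 CPM in controls and 346 of 680 CPM in Rnmt cKO cells (means). Their ratio to Cd247 is thus weighted to Cd3g. The log2 ratio of the 3 CD3 genes to Cd247 was 1.03, 0.82 and 0.94 in controls, against 0.48, 0.58 and 0.73 in Rnmt cKO cells. The ratio was therefore lower in every Rnmt cKO library than in any control, by 0.34 on average, with an exact two-sided permutation p of 0.10, the smallest that 3 against 3 allows (adjusted p = 0.15 over the 6 ratios computed, of which 5 are given here). The log2 ratio of Zap70 to Lck was -1.93 ± 0.0324 and -1.97 ± 0.0534 (SD, n = 3 each; exact permutation p = 0.30), and that of Lat to Lcp2 was 0.10 ± 0.198 and 0.13 ± 0.137 (SD, n = 3 each; exact permutation p = 0.90). Both overlapped between the groups.

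A further 2 ratios given here were chosen after the values were seen. Cd3g over Cd3d, the divergent pair, was 1.05, 1.08 and 1.07 in controls, against 0.88, 0.94 and 0.81 in Rnmt cKO cells. This ratio was tight among controls, whose levels of each gene alone spread far more. Rnmt cKO 3, in which Cd3d was higher than in the other Rnmt cKO libraries, had the lowest ratio. The difference was -0.19 (exact permutation p = 0.10). Cd3g over Cd3e was 1.79, 1.68 and 1.42 in controls, against 1.12, 1.21 and 1.41 in Rnmt cKO cells, so that the groups did not overlap but nearly met, with a difference of -0.38 (exact permutation p = 0.10). Both carry an adjusted p of 0.15 over the 6 ratios computed.

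**Figure D3:**
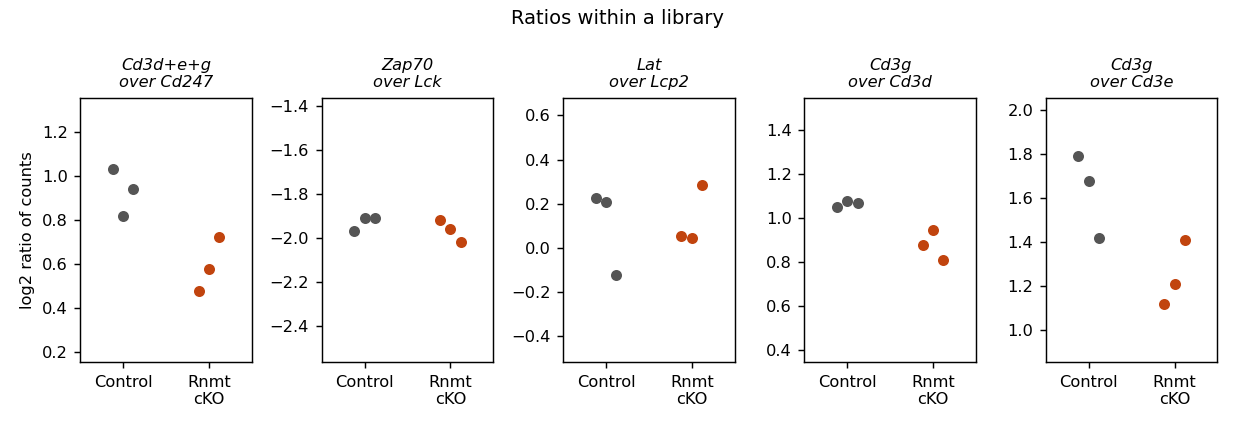
Log2 ratio of counts (vertical axes, each spanning the same range of log2 units) for 5 pairs in each library, controls in grey and Rnmt cKO in orange, 1 point per library. Zap70 over Lck and Lat over Lcp2 overlap between groups and the other 3 do not, with the widest difference, -0.38, for Cd3g over Cd3e.

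Levels of different genes were compared per length, as CPM divided by the length of the merged exons in kilobases (RPKM). In controls Ptprc was highest (663 ± 14.8 RPKM, SD, n = 3), followed by Cd3g (459 ± 53.8), Lck (278 ± 19.8), Lat (266 ± 31.1), Cd3d (139 ± 17.97), Cd3e (104 ± 8.89), Cd247 (97.2 ± 4.91), Zap70 (75.3 ± 4.54) and Lcp2 (73.4 ± 1.40). The highest was 9.03-fold above the lowest. The ranges of neighbours overlapped for Lck and Lat, for Cd3e and Cd247 and for Zap70 and Lcp2, and the other neighbours were apart in every control. By these annotated lengths the transcripts of the CD3 chains were unequal, with Cd3g above the other receptor chains in controls and, at 338 ± 57.4 RPKM (SD, n = 3), still second in Rnmt cKO cells. Cd3d, Cd3e and Cd3g have 1 annotated transcript each, so no other length could be tried for them. In Rnmt cKO cells Lat stood above Lck and Lcp2 above Zap70, and the remaining order was the same. The place of Cd247 depends on the length used, since its longest single transcript gave 149.8 RPKM in controls and moved it to the fifth place.

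**Figure D4:**
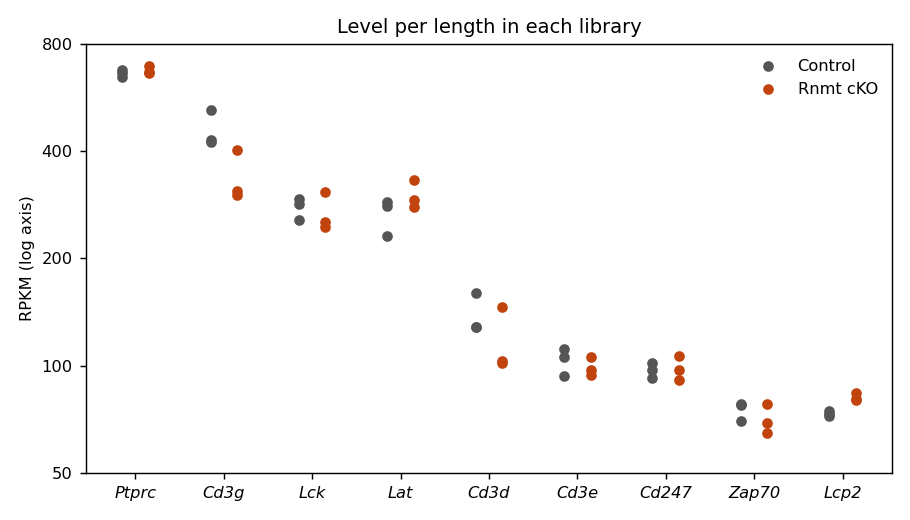
Level per length (RPKM, log axis) of the 9 genes, ordered by their control mean, with 1 point per library, controls in grey and Rnmt cKO in orange. Ptprc lies at 647.5 to 693 RPKM, Zap70 and Lcp2 lie lowest at 64.7 to 83.7 RPKM, and the Cd3g points of Rnmt cKO lie below those of controls.

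The rest of the pathway was followed through 89 further genes in 6 lists by role, of which 85 were tested. Here 7 genes were lower, 7 were higher and 71 did not pass, against the 6.84% lower and 8.0% higher of all tested genes, and the median log2 fold change was -0.02. These counts are near those shares, and their balance depended on the setting, with 2 lower and 14 higher with no scaling and 12 lower and 6 higher without Rnmt cKO 3. The counts over all genes moved as well. They were 535 lower and 1938 higher with no scaling and 1285 and 1221 without Rnmt cKO 3, against 844 and 987. Among genes over 50 CPM, no log2 fold change exceeded 0.48 in size.

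The antigen-binding chains come first. Trac, the constant gene of the alpha chain, was at 583 ± 75.6 CPM in controls, against 567 ± 77.0 CPM in Rnmt cKO cells (SD, n = 3 each; adjusted p = 0.915, edgeR exact test). Trbc1 (log2 fold change 0.01) and Trbc2 (0.04), the constant genes of the beta chain, did not pass either, and since their sequences are nearly identical the division of fragments between them is uncertain. Trdc, the constant gene of the delta chain, which lies inside the alpha locus, rose from 9.29, 7.69 and 6.96 CPM to 12.7, 11.5 and 12.7 CPM, a log2 fold change of 0.62 (SE 0.161, adjusted p = 0.00821, edgeR exact test). It passed in 10 of 15 alternatives, and its call was lost without control 2 (0.60, adjusted p = 0.0818), control 3 (0.54, adjusted p = 0.0782) or Rnmt cKO 1 (0.60, adjusted p = 0.0542, edgeR exact test). The gamma chain constant genes Tcrg-C1, Tcrg-C2 and Tcrg-C4 were under 2 CPM in every library and were not tested.

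Among 11 other proximal kinases and phosphatases, 1 fell and 2 rose. Both that rose, Txk and Tec, are Tec family kinases, which phosphorylate phospholipase C gamma downstream of LAT and SLP-76. Txk rose from 178, 191 and 206 CPM to 262, 258 and 218 CPM (log2 fold change 0.36, SE 0.0927, adjusted p = 0.0095, edgeR exact test). Tec rose from 17.4, 16.3 and 15.9 CPM to 28.5, 27.2 and 30.5 CPM (0.80, SE 0.109, adjusted p = 2.53e-08, edgeR exact test). The groups did not overlap for either gene. Tec passed in 15 of 15 alternatives and Txk in 10. Txk missed the threshold without control 1 (0.31, adjusted p = 0.107), control 2 (0.35, adjusted p = 0.0815), Rnmt cKO 1 (0.31, adjusted p = 0.0885) or Rnmt cKO 2 (0.32, adjusted p = 0.0937), all by the edgeR exact test. Within the low and high sets by share in no gene, the log2 differences were 0.24 and 0.34 for Txk and 0.86 and 0.81 for Tec. Their signs were fixed in advance, since the groups did not overlap.

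Of 23 other adaptors and scaffolds, 3 fell and 1 rose. Skap1, an adaptor that links the receptor to integrin adhesion, went from 392 ± 16.3 to 328 ± 6.55 CPM (log2 fold change -0.26, adjusted p = 0.0437, edgeR exact test). Pag1, which anchors the inhibitory kinase CSK at the membrane, went from 287 ± 11.96 to 234 ± 2.05 CPM (-0.29, adjusted p = 0.0124, edgeR exact test). Sla2, an adaptor that promotes receptor turnover, went from 67.2 ± 5.71 to 53.3 ± 1.00 CPM (-0.33, adjusted p = 0.0121, edgeR exact test). Those that fell thus include both a positive and 2 negative regulators. Dok1, an inhibitory adaptor, rose from 14.4 ± 2.99 to 21.5 ± 3.67 CPM (0.58, adjusted p = 0.0191, edgeR exact test). With no scaling Skap1, Pag1 and Sla2 were not called (adjusted p = 0.381, 0.261 and 0.17, edgeR exact test), whereas Dok1 was (0.00117). The calls were often lost with 1 library left out, although each log2 fold change kept its sign. Over all genes, leaving out 1 library other than Rnmt cKO 3 also gave fewer calls, with 547 to 624 lower against 844. Leaving out 1 library ended the call of Skap1 in 5 of 6 cases (all but Rnmt cKO 3, adjusted p = 0.106 to 0.201), of Pag1 in 4 (controls 2 and 3, Rnmt cKO 1 and 2, 0.0726 to 0.098), of Sla2 in 4 (controls 1 and 3, Rnmt cKO 1 and 2, 0.0579 to 0.115) and of Dok1 in 3 (control 3, Rnmt cKO 2 and 3, 0.0642 to 0.147), by the edgeR exact test.

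Of 11 tested inhibitors and ubiquitin ligases, 0 fell and 1 rose. Dgka, the kinase that removes diacylglycerol and so limits Ras signalling, went from 1186 ± 55.6 to 1454 ± 129 CPM (log2 fold change 0.29, adjusted p = 0.0493, edgeR exact test) and passed in 4 of 15 alternatives, losing the call without any 1 library but Rnmt cKO 3 (adjusted p = 0.121 to 0.28, edgeR exact test). Of 7 co-stimulatory receptors, Cd226, an adhesion receptor for nectin-family ligands, fell from 59.0, 56.3 and 58.3 CPM to 43.5, 45.5 and 41.0 CPM (-0.42, adjusted p = 0.000593, edgeR exact test). Its groups were far apart relative to their spread, and it passed in 14 of 15 alternatives.

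Of 29 downstream effectors, 2 fell and 2 rose. Ppp3ca, the catalytic alpha subunit of calcineurin, had 81.9, 84.3 and 68.4 CPM in controls, against 55.6, 55.1 and 57.5 CPM in Rnmt cKO cells (log2 fold change -0.48, SE 0.0939, adjusted p = 0.000205, edgeR exact test). Nfatc2, a transcription factor that calcineurin dephosphorylates, had 113, 115 and 119 CPM in controls, against 91.1, 89.7 and 97.7 CPM in Rnmt cKO cells (-0.32, SE 0.0740, adjusted p = 0.00531, edgeR exact test). For both genes every Rnmt cKO library lay below every control. The other tested calcineurin and NFAT genes of the list, named after their values were seen, were Ppp3cb (log2 fold change -0.11), Ppp3r1 (0.03), Nfatc1 (-0.01) and Nfatc3 (0.07). These 4 did not pass and overlapped between groups. Ppp3ca passed in 15 of 15 alternatives and Nfatc2 in 12, the latter not without Rnmt cKO 2 (-0.30, adjusted p = 0.0699, edgeR exact test). Stim2, a calcium sensor of the endoplasmic reticulum, rose from 78.8 ± 4.22 to 94.3 ± 3.92 CPM (0.26, adjusted p = 0.0412, edgeR exact test), but leaving out any 1 library ended its call (adjusted p = 0.0559 to 0.282, edgeR exact test). Nfkb1, which encodes the p105 precursor of NF-kB, rose from 310 ± 7.49 to 385 ± 12.6 CPM (0.31, adjusted p = 0.00766, edgeR exact test), a call lost without control 1 (0.29, adjusted p = 0.0761), control 2 (0.32, adjusted p = 0.0777) or Rnmt cKO 2 (0.31, adjusted p = 0.0637, edgeR exact test).

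**Figure D5:**
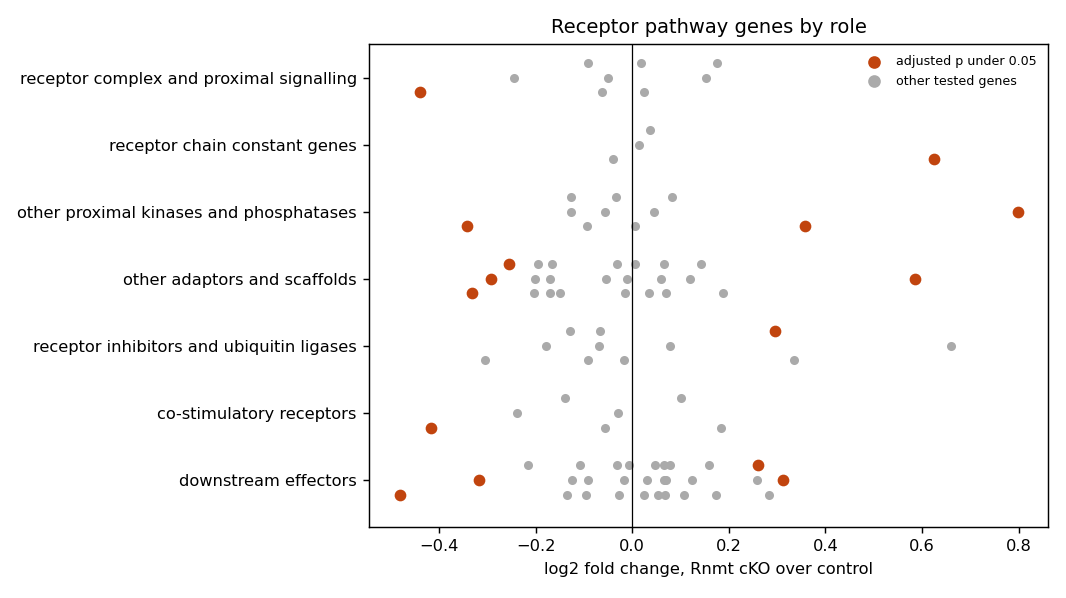
Log2 fold change of Rnmt cKO over control (horizontal axis) for each tested gene of the receptor pathway, in rows by role with vertical offsets for legibility, with genes past an adjusted p of 0.05 (edgeR exact test) in orange and the others in grey. Orange points lie on both sides of 0, from -0.48 (Ppp3ca) to 0.80 (Tec), and 1 of the 9 receptor complex and proximal signalling genes is orange.

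The average profile of the 9 genes, each centred on its own mean log2 CPM, was 0.11, 0.01 and -0.03 in controls, against -0.08, -0.12 and 0.11 in Rnmt cKO cells. The average was thus highest in control 1 and Rnmt cKO 3, the libraries with the lowest shares of fragments counted in no gene, and did not separate the groups. Lck (root mean square distance 0.0443 log2 units over 6 libraries), Cd247 (0.0446) and Zap70 (0.0448) lay nearest to it. Cd3g lay farthest (0.211), followed by Cd3d (0.153), Lcp2 (0.142) and Lat (0.14). The median was 0.159 over 8452 other genes of at least 10 CPM. Each of the 9 genes is part of the average, which lowers its own distance, so this median is no like measure for them. Among genes outside the group, the nearest were Ptpn7 (0.0133), a phosphatase of haematopoietic cells that acts on MAP kinases, Cd2 (0.0195), an adhesion and co-stimulatory receptor of T cells, Fbxo34 (0.0257), Mrpl15 (0.0269), a mitochondrial ribosomal protein, and Acsl5 (0.0273), an acyl-CoA synthetase. None of these 5 passed the edgeR exact test, with log2 fold changes from -0.07 to -0.03.

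Upstream sequence was scanned for all 9 genes in 13 RefSeq windows of 250 bases, on both strands. An ETS core (AGGAAG) was present in the first-listed window of 8 of the 9 genes, all but Cd3g, and in 29.5% of 32817 windows of all genes. An E box (CAGGTG) was present in the first-listed window of 4 genes, Cd3g, Cd3d, Cd247 and Zap70, and in 17.2% of all windows. The letters TGTGGT of a RUNX core were found in that window for Lck only (14.0% of all windows), and TATAAA for Ptprc only (12.4%). A C at the annotated start followed by at least 4 pyrimidines, the letters of a terminal oligopyrimidine start, was found in 0 of the 13 windows and in 2.5% of all.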

How the data were processed

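RNA was extracted from sorted naïve CD4 T cells, depleted of rRNA and sequenced as 75-base pairs. Reads were aligned to mm10 by the authors with STAR 2.5.2b (GENCODE vM12, basic set), and the counts they deposited are raw numbers of uniquely mapped fragments for each gene. They also deposited an edgeR table with fold changes and p-values, which were not used, and a normalised signal per library, used only to identify the sense count column. That column matched for 100% of 11221 genes in each library within 1 in 1000. Lines for fragments counted in no gene (31.8% to 47.9% of uniquely mapped fragments) or in several were kept out of library sizes.

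Tests covered genes above 1 CPM in 3 or more of the 6 libraries and ran between 3 Control and 3 Rnmt cKO samples with TMM scaling and the exact test on tagwise dispersions in edgeR 4.0.16 (R 4.3.3), two-sided, with Benjamini-Hochberg adjustment over all tested genes and a threshold of 0.05. Standard errors and 95% intervals came from limma 3.58.1 on log2 CPM with a prior count of 2, with variances moderated by a trend on expression level. Ratios were compared by an exact permutation test (scipy 1.17.1). Coordinates and exon lengths are from GENCODE vM21 on the same build, which held 46488 of the 46983 gene identifiers, and upstream sequences from RefSeq (GRCm38.p6), where all 9 genes were found. Code was tested on simulated data. Libraries of a group differed beyond sampling noise, and each was counted as a replicate.

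The genes and the lists were chosen with earlier results of these data known. All 9 genes are named, with each list gene past the threshold (at most 3 falls and 3 rises where over 6 passed), each tested receptor chain constant gene, and the 5 genes of at least 10 CPM nearest to the average profile. Results for 2 list genes that meet this rule or serve as markers, and 1 ratio, are not reported here. Alternatives were the edgeR quasi-likelihood test, also with a replicate block or the share in no gene as a covariate, DESeq2 1.42.0, no scaling, DESeq2 size factors, no filter, a filter of 10 CPM, unstranded counts, and leaving out each library.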

Additional observations from a re-analysis of the deposited data

How the results depend on the processing

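Of 135 values of the 9 genes under 15 alternatives, 117 kept their direction and their side of the threshold. The direction of small differences turned in 8. With no scaling the log2 fold change was 0.0587 for Cd3e, 0.0699 for Lck and 0.0291 for Zap70. Cd247 was at -0.0334 with unstranded counts and, with 1 library left out, at -0.0643 (Rnmt cKO 3) to 0.0646 (Rnmt cKO 2), with a value under 0 also without control 3. Lck was at -0.178 to 0.00707 and Ptprc at -0.00174 to 0.0388 with 1 library left out, both with the sign turned only without Rnmt cKO 2. The cause was not tested.

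The count of lower genes among the 9 was 0 with the replicate block, 2 with the share in no gene as a covariate and 0 to 2 when 1 library was left out. The count of higher genes was 2 with no scaling and 2 with the covariate, and 0 whichever library was left out. Their median log2 fold change was 0.0699 with no scaling and -0.134 to -0.00174 with 1 library left out. Of the 85 list genes, 2 were lower and 14 higher with no scaling, 1 and 1 with the replicate block, 14 and 11 with the covariate, and 2 to 12 lower and 2 to 6 higher with 1 library left out. The quasi-likelihood test and unstranded counts each gave 4 higher. Over all genes, no scaling gave 535 lower and 1938 higher, with a median of 0.14. The covariate gave 1466 lower and 1696 higher over all genes. With 1 library left out, 547 to 1285 of all genes were lower and 643 to 1221 higher. Rnmt was at -0.807 to -0.519 with 1 library left out. With the longest transcript in place of merged exons, Cd247 was at 150 and Lcp2 at 84.3 RPKM in controls, and unstranded counts gave 89.2 RPKM for Cd247.

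Replicate numbers are shared between the groups, but deviations of same-numbered libraries did not go together (r = -0.213, -0.016 and -0.345 for numbers 1, 2 and 3), so that the numbers were not taken to pair the samples. With the replicate block, the log2 fold change of Cd3g was -0.45 (adjusted p = 0.13, edgeR quasi-likelihood test), and 276 genes were lower and 431 higher, against 636 and 793 without the block in the same test. With 3 libraries in each group, the 95% intervals of the 8 genes that did not pass reach from -0.56 (Cd3d) to 0.41 (Lat).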

Other observations

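Antisense fragments were few at 8 of the 9 genes, between 0.0986% (Lat) and 0.709% (Cd3d) of sense plus antisense fragments over all libraries. Cd247 stood apart with 1410 antisense fragments (5.01%), at 206, 256 and 222 in controls and 221, 270 and 235 in Rnmt cKO cells, so that the groups overlapped. Besides Pou2f1, 4 short annotated transcripts lie on the opposite strand within Cd247. Its unstranded counts (3651, 4033 and 3515 in controls, 3637, 4242 and 5013 in Rnmt cKO cells) were lower than its sense counts (3951, 4451 and 3801, and 4187, 4922 and 5431).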
